A study of Mus musculus with 18 samples.

Results

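Long noncoding RNA was compared between day 21 pacSC and day 14 plpSC, a pair of germ cell types of the mouse testis. The comparison covers 2580 loci, namely every locus that reached 1 FPKM in at least 3 of the 6 libraries, out of 13218 loci in the deposited table. FPKM divides the fragments of a transcript by its length in kilobases and by the library's total of mapped fragments. Both types came from testes of male ICR mice, at postnatal day 21 for pacSC and day 14 for plpSC, and were separated by STA-PUT, a sedimentation of cells by size; no genotype or treatment is named. Each type had 3 libraries, made with a TruSeq RNA kit from bulk RNA, and the 12 libraries of the other types (priSG-A at day 6, priSG-B at day 9, rST at day 35 and elST at day 56) entered the fit. The labels do not spell out pacSC and plpSC, which in the field usually stand for pachytene and preleptotene spermatocytes, and do not say whether the 3 libraries came from separate animals. The series text speaks of duplicates, whereas 3 numbered libraries per type were analysed. A p-value here rests on the spread of these libraries alone, and that spread may be technical. In bulk RNA, a change in the share of one cell type cannot be told apart from a change in RNA per cell.

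Preleptotene spermatocytes are the cells that enter meiosis, and pachytene spermatocytes are the later cells in which the paired chromosomes are fully synapsed and recombine. Pachytene is known for a broad rise in transcription, driven in part by the factor A-MYB, that includes coding genes of the later spermatid, many testis-specific long noncoding RNAs and the precursors of pachytene piRNAs. The sex chromosomes are silenced at the same stage.

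The libraries did not group by their labels, and this bears on each result; whether any label is in error was not tested. Over the 2580 loci, on the log2(FPKM + 1) scale, pacSC replicates 1 and 2 had Pearson's r of 0.96 with each other, but 0.53 and 0.52 with pacSC replicate 3. Replicates 1 and 2 of plpSC had r of 0.95 with each other, while plpSC replicate 3 had 0.07 and 0.08 with them. Across the labels, plpSC replicate 3 had r of 0.91 with pacSC replicate 3 and 0.96 with elST replicate 2. The other plpSC libraries had their highest r with priSG-A, 0.98 for replicate 1 with priSG-A replicate 1 and 0.98 for replicate 2 with priSG-A replicate 2. In the pacSC group, replicate 1 had 0.96 with elST replicate 3 and replicate 2 had 0.98 with it. The highest r of pacSC replicate 3 was 0.95, with rST replicate 3, and it had 0.90 with rST replicate 2. These correlations are across loci, which are not independent replicates. Results are therefore given with all libraries and with plpSC replicate 3 left out. That library was singled out from its profile, so the second fit is not an independent test.

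**Figure D1:**
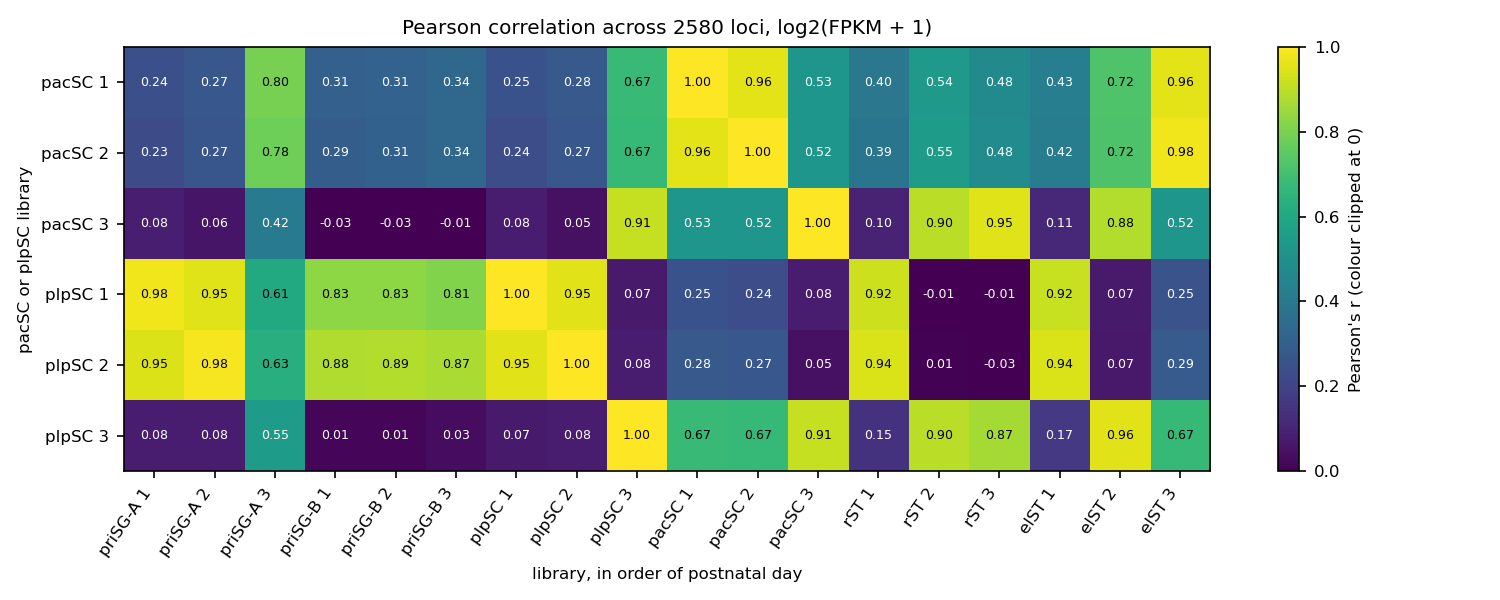
Pearson's r across the 2580 loci on the log2(FPKM + 1) scale between each pacSC or plpSC library (rows) and all 18 libraries (columns, in order of postnatal day). The plpSC replicate 3 row is high at pacSC replicate 3 (0.91) and elST replicate 2 (0.96) and low at the other plpSC libraries (0.07 and 0.08).

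Depth, read from the steps between low FPKM values, ran from 31.7 to 72.4 M fragments (M, mega) and was highest in pacSC replicates 1 and 2. The ribosomal RNA-derived locus AY036118 stood at 7.44, 7.25 and 9242 FPKM in pacSC, against 7526, 2307 and 12221 FPKM in plpSC. It divides the libraries into a low set (under 100 FPKM), with pacSC replicates 1 and 2, and a high set with pacSC replicate 3 and all of plpSC. The labels name no batch. This division and the depth both set pacSC replicates 1 and 2 apart from plpSC. The shallowest library was pacSC replicate 3, at 31.7 M fragments. Within pacSC and plpSC, only pacSC replicate 3 separates the division from the type, and elST, with replicate 3 in the low set, is the other type it divides. Loci at 1 FPKM or more numbered 2722, 2741 and 2866 in pacSC, against 1546, 1559 and 2802 in plpSC. The means were 2776 ± 78.2 in pacSC and 1969 ± 721 in plpSC (SD, n = 3 each), a difference that did not pass an exact permutation test (two-sided p = 0.3, where 3 against 3 cannot go below 0.1). Without plpSC replicate 3 the counts no longer overlap, and p was 0.2, the smallest that 3 against 2 allows in this exact test.

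Of the 2580 loci, 1257 (48.7%) reached 1 FPKM in all 3 pacSC libraries and in plpSC replicate 3 but in neither other plpSC library. Another 541 (21%) reached it in all 6. Only 23 did so in all 3 pacSC libraries and in no plpSC library, and 7 in all 3 plpSC libraries and in no pacSC library. These 23 and 7 passed the filter through one type alone and had to differ. The third highest of the 6 values lay between 1 and 1.1 FPKM for 134 loci just inside the rule and between 0.9 and 1 FPKM for 130 loci just outside it. By the GENCODE M21 annotation the loci were 981 lincRNAs, 779 antisense genes, 372 loci marked TEC (awaiting experimental proof), 267 processed transcripts, with smaller numbers in other classes, 32 of them protein coding.

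With all libraries, none of the 2580 loci differed between pacSC and plpSC by limma at an adjusted p under 0.05 (smallest adjusted p = 0.226), against 0% of the 4117 loci tested. An unadjusted p under 0.05 was reached by 417 loci, 16.2% of them, where the share over all loci tested was 15.8%. With trend and robust estimation switched off, limma again called 0. The 3 pacSC values lay above all 3 plpSC values at 171 loci, 6.63% of them, where the share over all loci tested was 5.39%. They lay below all 3 plpSC values at 38 loci, or 1.47%, against 2.43% of all loci tested. The median log2 fold change was 1.00 over the 2580 loci and 0.58 over all loci tested.

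Some loci stood clear of every plpSC library. Of those named here, 1700014F14Rik, Gm44145, Gm17333 and Gm29019 passed the filter through pacSC alone and C430014B12Rik through plpSC alone, so that they had to differ. The lincRNA 1700014F14Rik (chromosome 5, 60940938 to 60945649, mm10) stood at 16.5, 20.4 and 1.85 FPKM in pacSC and was listed at 0 in all 3 plpSC libraries (limma adjusted p = 0.226). It was also listed at 0 in all 3 elST libraries, but stood at 1.57 FPKM in priSG-A replicate 3 and 1.41 FPKM in rST replicate 2. Gm44145, an antisense locus within the Pole4 gene (chromosome 6, 82680132 to 82694822), stood at 96.4, 59.0 and 6.69 FPKM in pacSC and was listed at 0 in plpSC. In elST replicates 2 and 3 it stood at 24.0 and 68.4 FPKM. Gm28462 (chromosome Y, 68999952 to 69001511) stood at 444, 299 and 80.3 FPKM in pacSC, against 0, 0 and 23.9 FPKM in plpSC. Its counts are uncertain, because the long arm of the mouse Y chromosome holds many near-identical copies. In each of these 3 loci, pacSC replicate 3 was the lowest of the pacSC libraries and still above plpSC. The lincRNA Gm17333 (chromosome 16, 77846604 to 77853084) was low and even across pacSC, at 1.23, 1.69 and 1.43 FPKM, against 0, 0 and 0.361 FPKM in plpSC. Gm29019 (chromosome 15, 82982725 to 82987830), which shares exon sequence with Tcf20 on the same strand, stood at 9.71, 12.7 and 1.82 FPKM in pacSC, against 0.649, 0 and 0.346 FPKM in plpSC. The limma adjusted p was 0.305 for each of Gm44145, Gm28462, Gm17333 and Gm29019.

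In the other direction, the smallest p among separated loci belonged to Gm43118 (chromosome 5, 111387515 to 111388289), which shares exon sequence with Pitpnb on the other strand. It stood at 2.18, 1.41 and 1.48 FPKM in pacSC, against 5.92, 6.50 and 4.31 FPKM in plpSC (log2 fold change -1.29 ± 0.47, SE, limma adjusted p = 0.305). Gm21887 (chromosome X, 170009659 to 170019281), which M21 classes as protein coding, stood at 3.90, 4.01 and 3.84 FPKM in pacSC, against 27.2, 35.8 and 7.48 FPKM in plpSC. Gm47162 (chromosome 9, 123307084 to 123307983) stood at 2.30, 1.04 and 3.71 FPKM in pacSC, against 12, 12.4 and 4.99 FPKM in plpSC. C430014B12Rik (chromosome 1, 82691928 to 82725169), which shares exon sequence with Col4a3 and Mff, stood at 0.820, 0.491 and 0.372 FPKM in pacSC, against 1.35, 3.90 and 2.54 FPKM in plpSC. At the first 3 of these loci, plpSC replicate 3 was the plpSC library nearest to pacSC.

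With plpSC replicate 3 left out, 836 of the 2580 loci were higher in pacSC and 31 were lower (limma, adjusted p under 0.05). That is 32.4% and 1.20% of them, where 21.5% and 7.02% of all 4117 loci tested were called (28.5% in either direction). All these calls sat just under the threshold, with adjusted p between 0.0443 and 0.0499, and 1548 of the 2580 (60.0%) had an unadjusted p under 0.05, where 55.3% of all loci tested did. At each of the 836 loci all 3 pacSC values exceeded both remaining plpSC values, a pattern shared by 56.8% of all loci tested. Their median level was 8.05 FPKM in pacSC (mean of 3 libraries) and 0.0283 FPKM in plpSC replicates 1 and 2, and 316 of them were listed at 0 in both of those libraries. Over the other 520, the median log2 fold change was 2.87. After quantile normalization the split was 344 higher and 191 lower, and the median log2 fold change over all loci tested moved to 0.11 from 0.97 with the deposited scaling. Over all 4117 loci tested the majority turned, with 345 higher and 654 lower after quantile normalization and 884 higher and 289 lower with the deposited scaling. The filter also bears on the balance, since a locus on in plpSC replicates 1 and 2 alone cannot reach 1 FPKM in 3 of the 6 libraries, and 258 of the 289 lower calls fell outside the 2580 loci. In the other direction, 1257 of the 2580 loci, and 23 more, reached 1 FPKM in all 3 pacSC libraries and in neither plpSC replicate 1 nor 2. With plpSC replicate 3 left out, these loci pass through pacSC alone and had to differ. With the AY036118 division as a term no locus was called (smallest adjusted p = 0.114), though all 867 kept their sign. Nor was any called when pacSC replicate 1 or 2, or plpSC replicate 1 or 2, was left out as well. Without pacSC replicate 3, 628 were called.

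**Figure D2:**
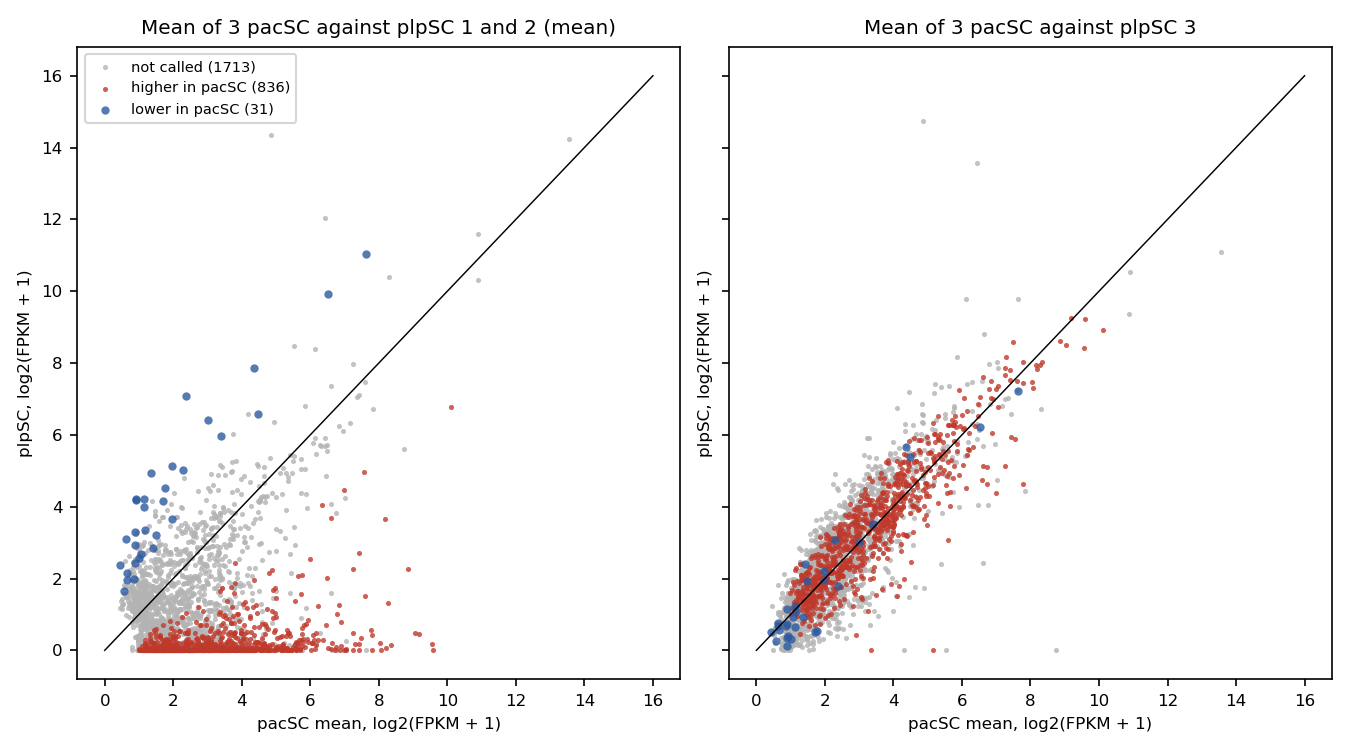
Each point is 1 of the 2580 loci, with the mean of 3 pacSC libraries on the horizontal axis and plpSC on the vertical axis, both in log2(FPKM + 1); the left panel uses plpSC replicates 1 and 2 and the right panel plpSC replicate 3. The 836 loci called higher in pacSC (red) lie near 0 in plpSC replicates 1 and 2. In plpSC replicate 3 they lie along the line of equal values. The fit did not use that library, but the filter that chose the loci counted it.

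The loci with the largest rises were near or at 0 in plpSC replicates 1 and 2 and among the most abundant loci of pacSC. The largest rises named here reached 1 FPKM in all 3 pacSC libraries and in neither plpSC replicate 1 nor 2. They therefore had to differ in this fit. The lincRNA Gm31072 (chromosome 14, 114945999 to 114947584) stood at 1380.0, 1685 and 184 FPKM in pacSC, against 0, 0.282 and 344 FPKM in plpSC, a log2 fold change of 9.38 ± 2.39 without plpSC replicate 3 (SE, limma adjusted p = 0.0443). Rbakdn (chromosome 5, 143164779 to 143165751), named for its place downstream of the coding gene Rbak, stood at 1183, 1179 and 141 FPKM in pacSC, against 0.0904, 0.749 and 608 FPKM in plpSC (8.72 ± 2.33). 1700008K24Rik (chromosome 17, 49112263 to 49113535) stood at 677, 813 and 266 FPKM in pacSC, against 0.253, 0.574 and 362 FPKM in plpSC (8.56 ± 2.01). In each of the 3, plpSC replicate 3 lay between pacSC replicate 3 and the other pacSC libraries. With all libraries their log2 fold changes were 6.63, 5.79 and 5.88 and none was called (limma adjusted p = 0.305 each).

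Gm6455 (chromosome 5, 10865029 to 10870808) stood at 457, 539 and 101 FPKM in pacSC, against 0.0350, 0.0519 and 226 FPKM in plpSC. 1700110I01Rik (chromosome 14, 3262340 to 3305832) stood at 436, 452 and 91.4 FPKM in pacSC, against 0.186, 0.133 and 176 FPKM in plpSC. Both thus had the pattern of Gm31072, with pacSC replicate 3 the lowest pacSC library. The Y-linked Gm29406 (chromosome Y, 56941294 to 56942627), from the same multicopy region as Gm28462, stood at 443, 635 and 69.0 FPKM in pacSC, against 0, 0 and 156 FPKM in plpSC.

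Another pair ran the other way within pacSC. 4930570D08Rik (chromosome X, 133898699 to 133901213) stood at 575, 602 and 1311 FPKM in pacSC, against 0, 0 and 599.9 FPKM in plpSC. 1700101O22Rik (chromosome 12, 7372039 to 7380330) stood at 98.5, 116 and 426 FPKM in pacSC, against 0, 0 and 183 FPKM in plpSC. Here pacSC replicate 3 was the highest library. Among all 836 loci, pacSC replicate 3 was above the other pacSC libraries at 366 and below them at 420. Of these sets, the 366 had median levels of 4.54, 4.94 and 10.1 FPKM in pacSC, against 0, 0 and 9.39 FPKM in plpSC. The 420 had medians of 12.8, 14.5 and 4.49 FPKM in pacSC, against 0.0475, 0.0563 and 7.57 FPKM in plpSC. Outside the pair, the 366 stood at a median of 4.97 and 6.35 FPKM in rST replicates 2 and 3, and the 420 at 4.89 and 3.35 FPKM. In elST replicate 3 the medians were 5.05 FPKM for the 366 and 12.7 FPKM for the 420. In priSG-A replicate 3 they were 1.32 and 4.18 FPKM. Gm31072, Rbakdn, 1700008K24Rik, Gm6455, 1700110I01Rik, Gm29406, Gm28462, 4930570D08Rik and 1700101O22Rik all lost their calls with the AY036118 division in the fit, at limma adjusted p of 0.114 to 0.127, and all kept their sign.

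**Figure D3:**
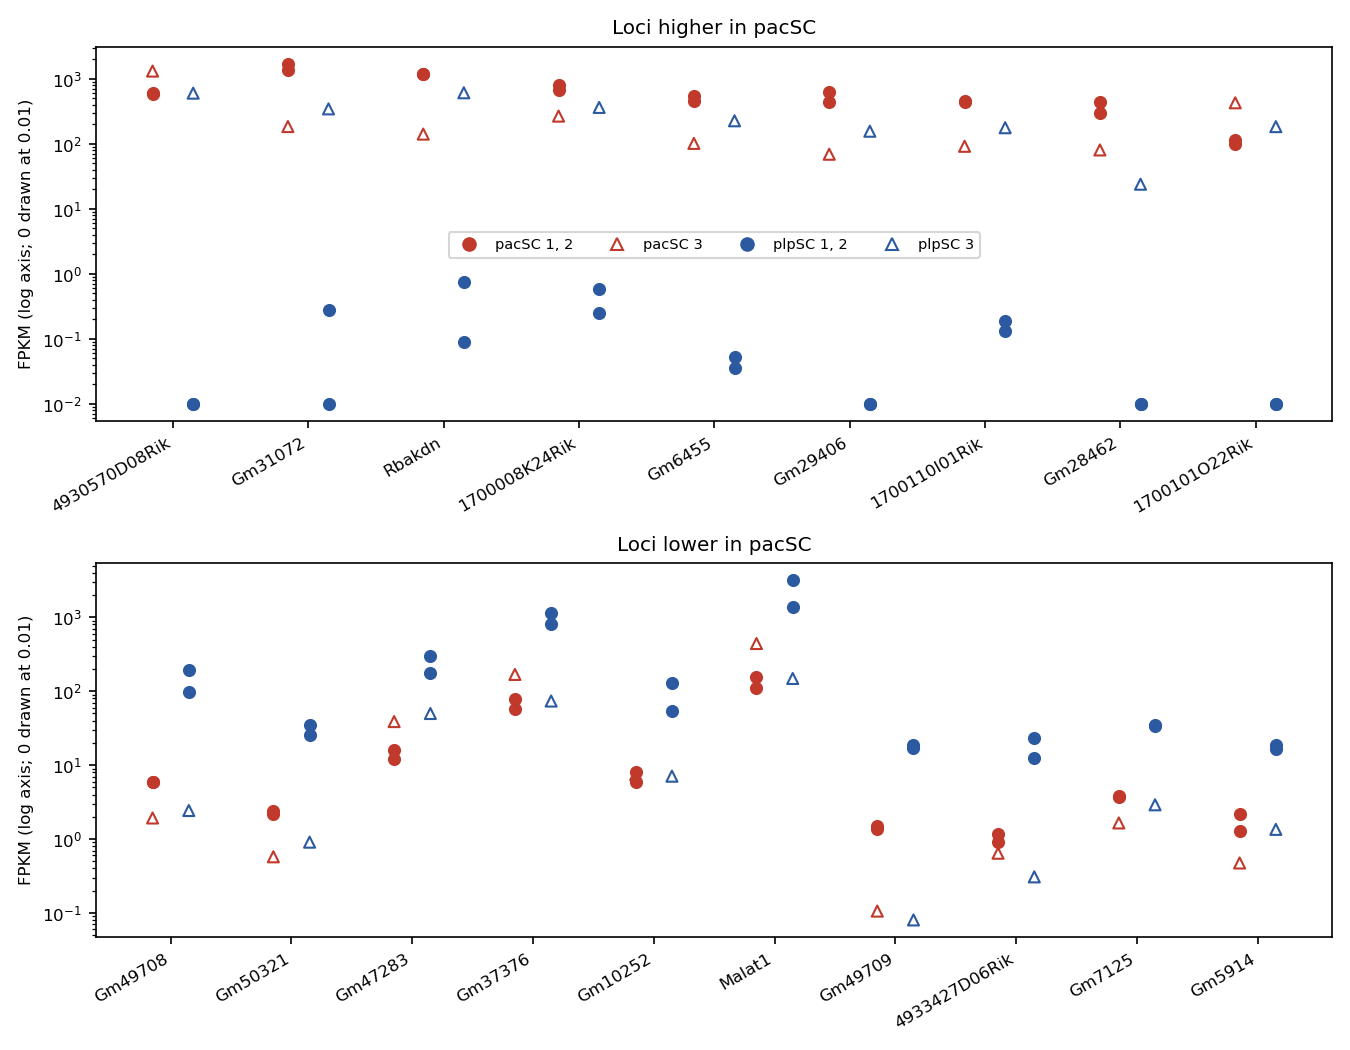
FPKM of 9 of the 10 loci with the largest rise (top) and the 10 with the largest fall (bottom) among those called without plpSC replicate 3, on a log axis with 0 drawn at 0.01; pacSC is red and plpSC blue, filled circles are replicates 1 and 2, and open triangles are replicate 3. At each locus drawn the open blue triangle (plpSC replicate 3) stands nearer to the pacSC points than to the other plpSC points.

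Promoters of some called loci are shown as examples. Among the largest rises with a promoter, only Rbakdn and 1700008K24Rik held a match to a motif searched, and they are the ones shown. Shared control of the loci was not tested. Each run is 300 bases, from 250 before to 50 after the transcript start in RefSeq (GRCm38.p6, the assembly also called mm10), 5′ to 3′ on the locus's strand, with any match to the searched motifs in capitals. Rbakdn is chr5:143165702-143166001 (minus strand) and 1700008K24Rik is chr17:49113484-49113783 (minus strand), both higher in pacSC, while Malat1, chr19:5802623-5802922 (minus strand), was lower.

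Rbakdn: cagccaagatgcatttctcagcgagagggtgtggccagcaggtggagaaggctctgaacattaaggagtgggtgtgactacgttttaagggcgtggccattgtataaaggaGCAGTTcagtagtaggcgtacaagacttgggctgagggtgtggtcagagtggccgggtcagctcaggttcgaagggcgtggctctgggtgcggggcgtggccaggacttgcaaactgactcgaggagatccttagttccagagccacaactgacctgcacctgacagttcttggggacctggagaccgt

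1700008K24Rik: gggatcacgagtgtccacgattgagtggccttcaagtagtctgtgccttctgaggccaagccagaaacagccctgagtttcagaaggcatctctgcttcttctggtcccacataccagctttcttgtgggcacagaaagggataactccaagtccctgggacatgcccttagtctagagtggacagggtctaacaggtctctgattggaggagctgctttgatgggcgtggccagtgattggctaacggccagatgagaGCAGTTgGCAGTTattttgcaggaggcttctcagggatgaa

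Malat1: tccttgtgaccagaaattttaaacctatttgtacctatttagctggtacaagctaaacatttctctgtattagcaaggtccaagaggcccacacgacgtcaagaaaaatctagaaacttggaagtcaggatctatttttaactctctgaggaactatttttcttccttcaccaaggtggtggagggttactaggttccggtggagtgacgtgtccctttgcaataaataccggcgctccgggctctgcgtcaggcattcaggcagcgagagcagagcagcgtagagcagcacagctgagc

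The motifs searched on both strands were GCAGTT, the core of the A-MYB motif, GTTGCC, bound by RFX factors, and TGACGTCA, the full cyclic AMP response element. GCAGTT and GTTGCC can overlap by the letters GTT. RefSeq promoters were matched by symbol, with a start within 1000 bp, for 884 of the 2580 loci, 354 of the 836 higher loci and 3 of the 31 lower loci. GCAGTT was present in 19.2% of the promoters of higher loci, 13.5% of those of loci not called, 15.2% of all tested loci with a promoter and 13.7% of all RefSeq promoters of this length. It stood once in the Rbakdn promoter and at 2 positions in that of 1700008K24Rik, while the promoters of 1700110I01Rik and 1700101O22Rik, also among the largest rises, held 0 matches to any of the 3 motifs. GTTGCC was present in 18.4%, 15.9%, 16.7% and 12.5%, and TGACGTCA in 2.54%, 3.99%, 2.64% and 1.79% of the same 4 sets. A match is a description of the letters and not of a bound site.

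The higher loci differed in make-up from the loci not called in several features that no filter used. LincRNAs were 52.5% of the 836 and 31.2% of the 1713 loci not called. Overlap with the body of a coding gene was found for 38.8% of the higher loci and 56.9% of those not called. Exon sequence shared with a coding gene on the other strand was found for 20.5% of the higher loci and 34.3% of those not called. The strand setting was not given, so reads from the shared sequence of such a pair cannot be assigned with certainty. More than 1 exon was annotated for 87.2% of the higher loci and 70.3% of those not called, and the median exon length was 978 and 1190 bp. These shares are descriptions, with no test.

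RIKEN clones from adult testis libraries formed the largest of the lists. These are loci still named by clone numbers such as 1700008K24Rik, whose cDNA came from adult testis. Of 679 such loci, 324 (47.7%) were higher in pacSC and 1 was lower without plpSC replicate 3, beside 32.4% and 1.20% of all 2580. The median log2 fold change was 2.55, and 2.46 over the 431 that were not listed at 0 in both plpSC libraries, beside 0.97 over all loci tested. With all libraries it was 1.59. After quantile normalization it was 1.42, with 155 higher and 3 lower. Over all 1135 such loci of the table, the summed level was 11750.4, 13089 and 20910.4 FPKM in pacSC, against 424, 445 and 15706 FPKM in plpSC, so that plpSC replicate 3 alone of its type stood within the pacSC range. Of 199 RIKEN clones from other tissues, 37 (18.6%) were higher and 2 lower, with a median of 0.59 that turned to -0.62 after quantile normalization. Of 98 loci with opposite-strand symbols (ending in os), 26 (26.5%) were higher and 0 lower, beside 32.4% and 1.20% of all 2580.

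Loci on the sex chromosomes were counted because both are silenced in pachytene. Of 46 loci on chromosome X, 10 were higher in pacSC and 1 lower without plpSC replicate 3, or 21.7% and 2.17%, beside 32.4% and 1.20% of all 2580. Their median log2 fold change was 2.23, beside 1.63 over the 2580 loci and 0.97 over all loci tested. Over the 36 that were not listed at 0 in both plpSC libraries the median was 1.25, beside 1.19 over all such loci among the 2580. Without pacSC replicate 3 as well, 2 were higher and 1 lower (median 1.75), and after quantile normalization 2 were higher and 8 lower (median 1.22). The summed level of all 189 X loci of the table was 1258, 1174 and 3641 FPKM in pacSC, against 156, 173 and 2191 FPKM in plpSC, highest in the libraries numbered 3. Of 20 loci on chromosome Y, 10 were higher and 1 lower, beside the same shares of 32.4% and 1.20%. The lower X locus was Gm21887 and the lower Y locus was Gm47283, both classed as protein coding by M21. Whether either lies in a silenced part of its chromosome was not examined.

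The 31 lower loci had median levels of 1.80, 1.82 and 1.28 FPKM in pacSC, against 16.9, 14.2 and 0.912 FPKM in plpSC. Malat1 (chromosome 19, 5795690 to 5802672), an abundant RNA of nuclear speckles, stood at 156, 111 and 441 FPKM in pacSC, against 3183, 1361 and 149 FPKM in plpSC. Its log2 fold change was -3.39 ± 0.98 without plpSC replicate 3 (limma adjusted p = 0.0443) and -2.12 ± 1.07 with it (limma adjusted p = 0.305). Gm37376 (chromosome 19, 5801941 to 5802393) lies within the Malat1 interval on the other strand, so its reads cannot be told from those of Malat1 with certainty. It stood at 78.0, 57.0 and 169 FPKM in pacSC, against 1159, 815 and 73.6 FPKM in plpSC. Neat1, the scaffold RNA of paraspeckles and a neighbour of Malat1, stood at 6.71, 5.14 and 4.48 FPKM in pacSC, against 8.99, 6.97 and 2.28 FPKM in plpSC and was not called (limma adjusted p = 0.367).

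Gm49708 (chromosome 16, 90341595 to 90349642) had the largest fall, at 5.98, 5.89 and 1.93 FPKM in pacSC, against 191, 96.6 and 2.43 FPKM in plpSC (log2 fold change -4.72 ± 1.34). Gm49709 (chromosome 16, 90349417 to 90362580), whose start overlaps that of Gm49708 on the other strand, stood at 1.52, 1.37 and 0.106 FPKM in pacSC, against 16.9, 18.6 and 0.0805 FPKM in plpSC. The pair thus fell together without plpSC replicate 3, and in that library both stood at the pacSC level. Gm50321 (chromosome 19, 9828899 to 9836897) stood at 2.17, 2.38 and 0.576 FPKM in pacSC, against 34.9, 25.5 and 0.908 FPKM in plpSC. 4933427D06Rik (chromosome 6, 88950683 to 89110031), the single adult testis clone among the lower loci, stood at 1.17, 0.919 and 0.643 FPKM in pacSC, against 23.6, 12.4 and 0.308 FPKM in plpSC. Gm7125 (chromosome 15, 68792320 to 68883576) stood at 3.72, 3.82 and 1.65 FPKM in pacSC, against 34.6, 33.9 and 2.91 FPKM in plpSC.

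Of the lower loci that share sequence with coding genes, Gm10252 (chromosome 7, 45459469 to 45460300) overlaps exons of the ferritin light chain gene Ftl1 on the other strand. It stood at 8.06, 5.82 and 7.44 FPKM in pacSC, against 54.1, 129.8 and 7.09 FPKM in plpSC. Gm5914 (chromosome 8, 105624336 to 105637485), which overlaps exons of Ctcf on the other strand and of Agrp on its own, stood at 1.29, 2.16 and 0.475 FPKM in pacSC, against 18.7, 16.3 and 1.35 FPKM in plpSC. Gm47283 (chromosome Y, 90784738 to 90816465), classed as protein coding by M21, stood at 15.9, 12.1 and 38.8 FPKM in pacSC, against 178, 297 and 49.9 FPKM in plpSC. Of these 3, only Gm47283 had all 3 pacSC values below all 3 plpSC values. Malat1, Gm37376, Gm49708, Gm49709, Gm50321, 4933427D06Rik, Gm7125, Gm10252, Gm5914 and Gm47283 all lost their calls with the AY036118 division in the fit, where their log2 fold changes were -4.83 to -2.23 and the limma adjusted p 0.114 to 0.154.

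The other 12 libraries bore on the contrast through the shared spread and through the filter that set which loci were tested. Across them, the called loci followed the profile of each library and not a steady course by age. In order of age, the median of the 836 higher loci was 0, 0.00736 and 2.18 FPKM in priSG-A and 0.0288, 0.0381 and 0.0701 FPKM in priSG-B. The plpSC libraries had 0, 0.0274 and 8.04 FPKM, and the pacSC libraries 6.92, 7.71 and 6.78 FPKM. The rST libraries had 0.108, 4.82 and 4.40 FPKM, and the elST libraries 0.229, 7.05 and 7.14 FPKM. Replicate 3 of priSG-A was therefore the exception among the day 6 libraries, and replicate 1 of rST and of elST among the later ones. At 813 of the 836 loci (97.2%), plpSC replicate 3 lay nearer to the pacSC mean than to the mean of the other plpSC libraries on the log2 scale, as it did at 2250 of all 2580 loci (87.2%). It lay within the pacSC range at 504, above it at 217 and below it at 115. The filter that chose the loci counted plpSC replicate 3, so its position is not an independent check. For the 31 lower loci it lay nearer to pacSC at 30.

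**Figure D4:**
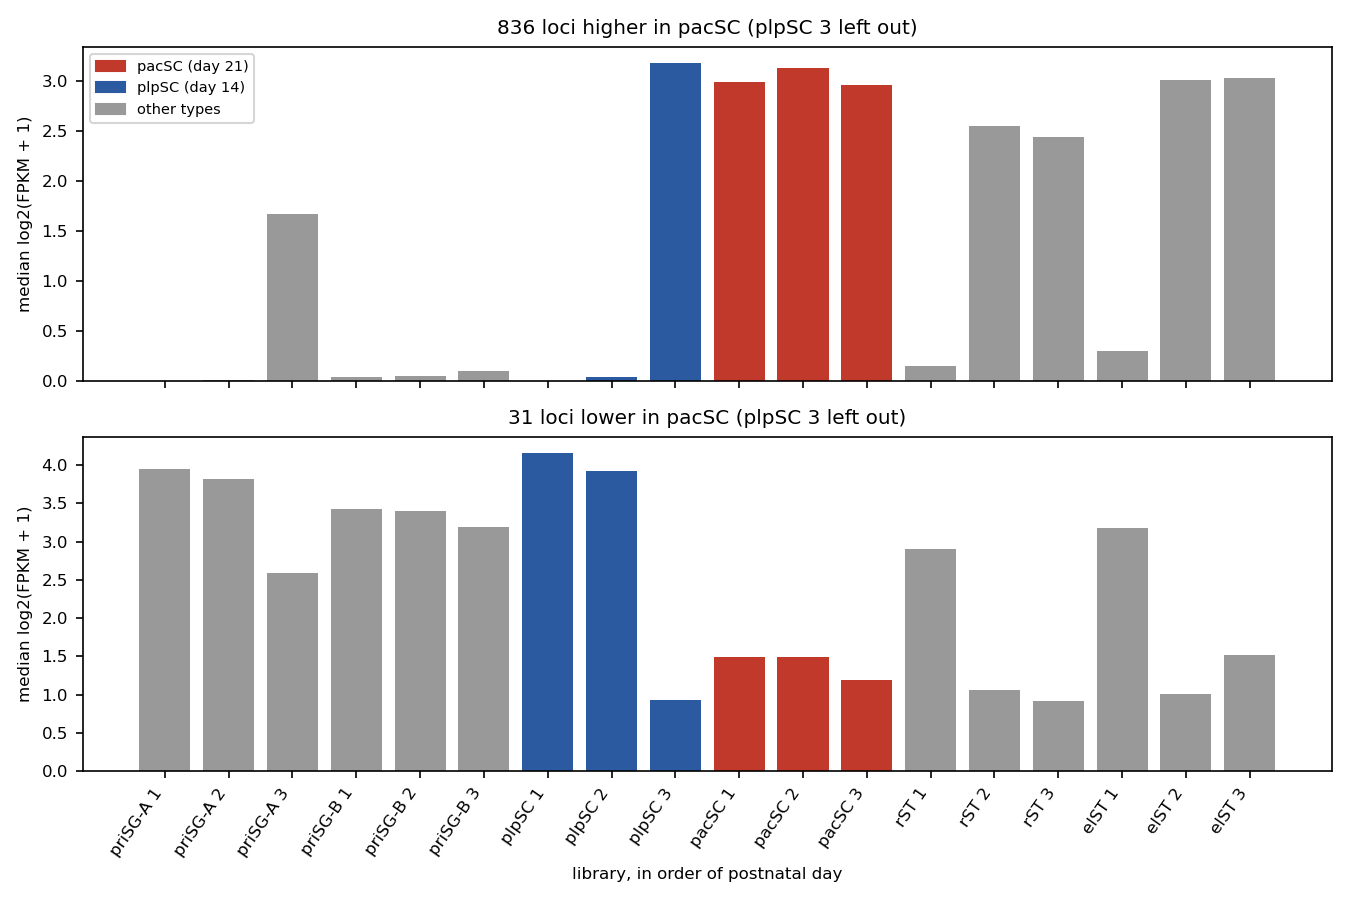
Median log2(FPKM + 1) of the 836 loci called higher (top) and the 31 called lower (bottom) in pacSC without plpSC replicate 3, in each of 18 libraries in order of postnatal day, with pacSC in red, plpSC in blue and other types in grey. The plpSC replicate 3 bar (8.04 FPKM in the top panel) stands with pacSC, and priSG-A replicate 3, rST replicate 1 and elST replicate 1 differ from the other libraries of their own types.

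Some loci at the coding markers of cell types moved with this division, and others did not. The spermatid list, with 5 loci at spermatid genes such as Tnp1 and Gapdhs, summed to 83.4, 92.1 and 1199 FPKM in pacSC and to 2.96, 5.75 and 879 FPKM in plpSC. Most of it in pacSC and in plpSC replicate 3 was 1700027A15Rik (chromosome 1, 72984844 to 73025507), which shares exon sequence with Tnp1, the gene of a transition protein that packs spermatid DNA. It stood at 75.8, 84.9 and 1195 FPKM in pacSC, against 0, 0 and 874 FPKM in plpSC (limma adjusted p = 0.0631 without plpSC replicate 3). The pachytene list, with 2 loci, summed to 7.96, 8.98 and 0.814 FPKM in pacSC and to 0, 0.0459 and 2.76 FPKM in plpSC. Its member 4931419H13Rik shares exon sequence with the meiotic cyclin gene Ccna1 and so cannot be told from it with certainty. This locus stood at 3.24, 3.71 and 0.613 FPKM in pacSC, against 0, 0 and 2.01 FPKM in plpSC. The libraries numbered 3 of both types thus held the highest sums of the spermatid list, through 1700027A15Rik. The Tmem147os loci, which overlap Gapdhs, were instead lowest in replicate 3 within pacSC. One stood at 4.96, 4.40 and 1.92 FPKM in pacSC, against 1.58, 2.83 and 2.78 FPKM in plpSC. The other stood at 2.46, 2.61 and 1.55 FPKM in pacSC, against 1.28, 2.44 and 2.13 FPKM in plpSC. Loci at spermatogonial markers summed to 2.07, 1.36 and 3.47 FPKM in pacSC and to 0.643, 2.81 and 4.35 FPKM in plpSC. No locus of the table overlaps the Sertoli markers, and the single loci at Leydig and peritubular markers stayed at or below 0.172 FPKM. The part of spermatid RNA in the 836 calls was not tested.

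Imprinted RNAs of the H19 and Dlk1-Meg3 regions are silenced by methylation of the paternal copy and in male germ cells, and serve here as markers of somatic cells. H19, Meg3, Rian and Mirg together summed to 6.08, 5.60 and 12.7 FPKM in pacSC and to 35.8, 49.2 and 5.32 FPKM in plpSC. H19 itself missed the filter of 1 FPKM in 3 libraries. Meg3 stood at 0.877, 0.389 and 3.25 FPKM in pacSC, against 11.6, 6.66 and 0.947 FPKM in plpSC (log2 fold change -2.14 ± 0.86, limma adjusted p = 0.0632 without plpSC replicate 3). Rian stood at 3.14, 3.54 and 4.41 FPKM in pacSC, against 8.32, 12.4 and 2.28 FPKM in plpSC, and Mirg, from the same cluster, at 1.61, 1.11 and 4.36 FPKM in pacSC, against 0.563, 0.493 and 1.53 FPKM in plpSC. Meg3 and Rian thus had their highest values in plpSC replicates 1 and 2 and Mirg had its highest in pacSC replicate 3, with none called. Of the 6 imprinted loci that passed the filter, 0 were called by limma, also with all libraries, while quantile normalization gave 1 lower call. The part of somatic RNA in the 31 lower calls was not tested.

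Small nucleolar RNA host genes, whose introns carry the RNAs that guide modification of ribosomal RNA, had 14 loci in the comparison, and none was called by limma in either fit. Their median log2 fold change was -0.80 without plpSC replicate 3 and -0.24 with it, beside 0.97 and 0.58 over all loci tested. After quantile normalization the median was -2.53, with 1 locus called lower. Gas5 stood at 68.7, 69.5 and 36.6 FPKM in pacSC, against 92.5, 133 and 37.1 FPKM in plpSC. Snhg6, which shares exon sequence with Mcmdc2, stood at 11.8, 13.8 and 2.40 FPKM in pacSC, against 22.3, 38.0 and 2.68 FPKM in plpSC, and Snhg20 at 4.32, 4.93 and 0.0786 FPKM in pacSC, against 8.98, 16.5 and 0.489 FPKM in plpSC. In these 3 the libraries numbered 3 were the lowest of both types. Snhg8 was nearly even, at 35.9, 41.5 and 48.8 FPKM in pacSC, against 30.6, 57.7 and 47.8 FPKM in plpSC. Snhg3, which shares exon sequence with Rcc1, was not called either, at 16.4, 14.5 and 1.97 FPKM in pacSC, against 1.50, 5.16 and 3.70 FPKM in plpSC (limma adjusted p = 0.266).

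Of 6 microRNA host transcripts, 1 was lower and 0 were higher without plpSC replicate 3, where 1.20% and 32.4% of the 2580 loci were called lower and higher. Mir22hg (chromosome 11, 75461539 to 75466676), the host of miR-22, shares exon sequence with Tlcd2 and stood at 1.19, 1.18 and 1.39 FPKM in pacSC, against 5.72, 14.6 and 1.13 FPKM in plpSC (log2 fold change -2.18 ± 0.69, limma adjusted p = 0.0443). Mir9-3hg stood at 4.60, 5.60 and 6.96 FPKM in pacSC, against 1.79, 1.65 and 4.90 FPKM in plpSC and narrowly missed the threshold (limma adjusted p = 0.0501). Mir17hg, which carries the miR-17 to miR-92 cluster of growth-promoting microRNAs, stood at 3.93, 4.06 and 0.265 FPKM in pacSC, against 1.44, 3.16 and 0.0349 FPKM in plpSC. It was near 0 in both libraries numbered 3. Mir670hg was highest in those libraries, at 2.43, 2.47 and 18.1 FPKM in pacSC, against 0.510, 0.570 and 8.18 FPKM in plpSC (limma adjusted p = 0.0983).

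Among other known RNAs, Tug1, whose loss is known to impair spermatogenesis in mice, shares exon sequence with Morc2a and was not called, at 28.2, 27.0 and 13.1 FPKM in pacSC, against 22.6, 22.6 and 15.3 FPKM in plpSC. Ftx, of the X-inactivation centre, stood at 5.26, 5.43 and 1.66 FPKM in pacSC, against 3.09, 3.40 and 1.42 FPKM in plpSC. Pvt1, a neighbour of Myc, stood at 6.36, 7.22 and 5.72 FPKM in pacSC, against 0.490, 0.443 and 8.41 FPKM in plpSC (limma adjusted p = 0.0771 without plpSC replicate 3). At Pvt1 the pacSC libraries were even, and plpSC replicate 3 stood above them. The telomerase RNA Terc stood at 34.8, 43.9 and 0.320 FPKM in pacSC, against 8.83, 97.8 and 2.23 FPKM in plpSC.

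**Figure D5:**
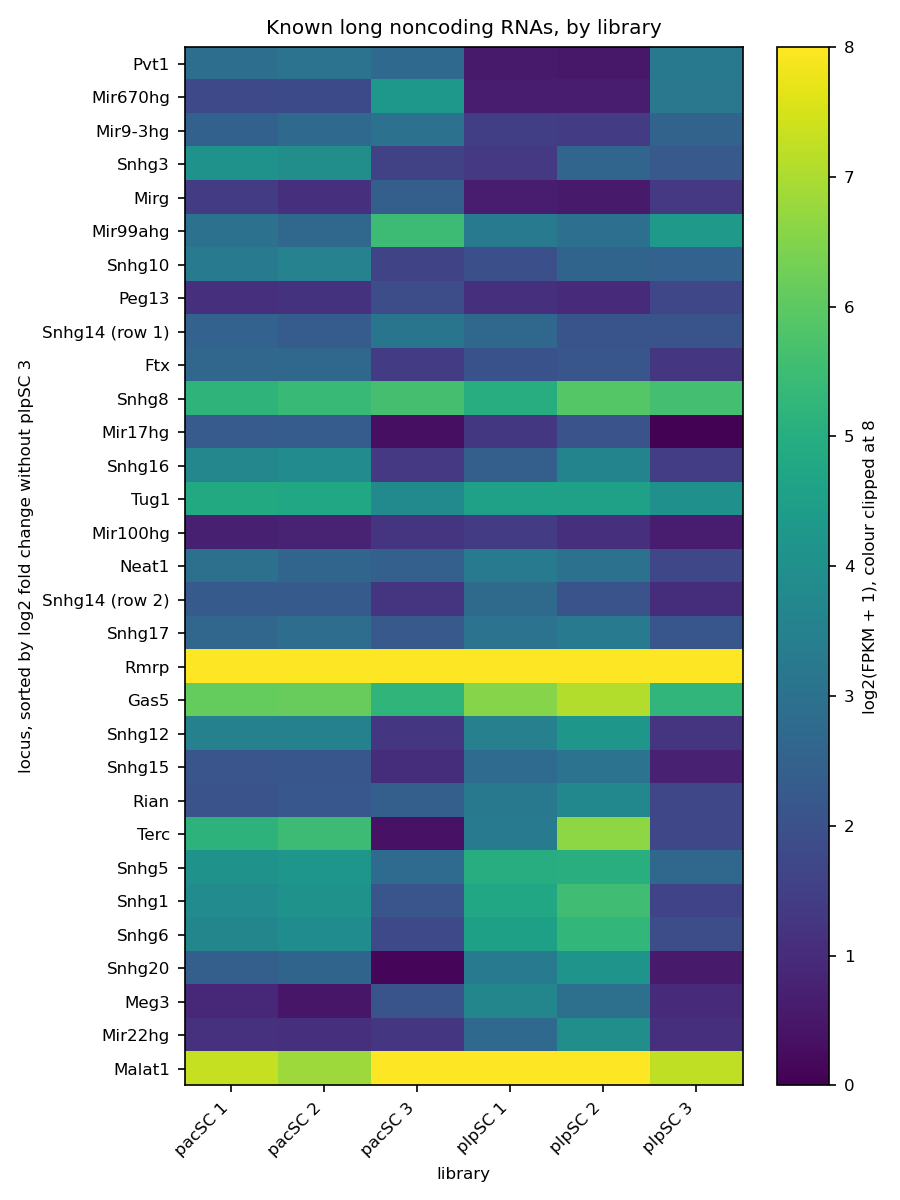
Log2(FPKM + 1) of the known long noncoding RNAs in the 3 pacSC and 3 plpSC libraries, sorted by log2 fold change without plpSC replicate 3, with colour clipped at 8; Snhg14 stands on 2 rows of the table. Terc, Mir17hg and Snhg20 are dark in replicate 3 of both types, and Malat1 is brightest in plpSC replicates 1 and 2 and pacSC replicate 3.

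Beside Malat1, the loci with the highest mean over the 6 libraries were Rmrp, Gm37750, AY036118, Gm28967 and Gm10076. Rmrp (chromosome 4, 43492783 to 43493063), the RNA of RNase MRP, shares exon sequence with Ccdc107 and stood at 51841, 66814 and 493 FPKM in pacSC, against 5695, 65601 and 2188 FPKM in plpSC. Gm37750 (chromosome 9, 104053327 to 104053455) was listed at 0, 0 and 24098 FPKM in pacSC, against 10684, 40853 and 27206 FPKM in plpSC, so that, like AY036118, it separated pacSC replicates 1 and 2 from the other 4 libraries. Its interval is shorter than the fragments inferred for the 6 libraries (200 to 270 bp), and that of Rmrp is little longer. The FPKM levels and ranks of both are therefore uncertain. Gm28967 (chromosome 6, 125186361 to 125186641), within the condensin gene Ncapd2, stood at 2166, 2711 and 1139.7 FPKM in pacSC, against 4168, 2267 and 659 FPKM in plpSC. Gm10076 (chromosome 14, 105681828 to 105682211) stood at 2845, 3533 and 688 FPKM in pacSC, against 786, 2040.2 and 1476 FPKM in plpSC. None of Rmrp, Gm37750, AY036118, Gm28967 and Gm10076 was called in either fit.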

How the data were processed

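The authors deposited a single table of FPKM values covering all 18 libraries. HISAT2, StringTie and the mm10 build are named in the submitters' processing notes, per the labels, while their versions, the annotation, the strand setting and the filters were not given. Identifiers were matched to GENCODE M21 on the same assembly, and 2572 of the 2580 loci matched. Depth was inferred from FPKM steps of 3639 single-exon loci, where 93.1 to 97.1% of low values came out whole within 0.02.

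The deposited values were tested as log2(FPKM + 1), a scale that understates the change of low loci, with limma 3.58.1 (trend, robust, two-sided) in R 4.3.3. The fit held all 18 libraries, or 17 without plpSC replicate 3, and 1 coefficient per type. The 4117 loci at 1 FPKM or more in 3 of 18 libraries were adjusted together by Benjamini-Hochberg, with a threshold of 0.05. On simulated data with independent loci, the fit recovered 57.6% of the changes of 4 on the log2 scale with all libraries. Without plpSC replicate 3 it recovered 66.7%, and the false calls among 4117 loci were 3 and 5. The simulated libraries had no shift shared across loci, unlike the deposited ones, so these rates cannot be carried over to them. Python 3.11.15, scipy 1.17.1 and matplotlib 3.10.9 were used for the rest.

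For pairing by number, deviations from the type means correlated at 0.31, 0.32 and 0.35 between same-numbered pacSC and plpSC libraries. Differently numbered libraries were not compared, and deviations within a type depend on each other, so these values cannot show pairing. The numbers were treated as pairs only in the fit with a replicate block. No label says that a number marks a shared preparation.

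Loci were named by rule: the 10 largest rises and falls among calls without plpSC replicate 3, 5 each way by p among loci separated with all libraries, the 6 most abundant, and members of fixed lists. Pvt1 and Terc were named after their values were seen. The loci, lists and rules were chosen with earlier results of these data known. Of the listed testis RNAs, Mrhl and Tesra were not analysed here, and Gm2044 did not pass the filter. Other list members are given only in counts, medians or the plot of known RNAs, and 1 locus among the largest rises is not reported here.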

Additional observations from a re-analysis of the deposited data

How the results depend on the processing

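With all libraries, the count of loci called by limma stayed at 0 under the other pseudocount, filters, scaling, tests, the batch term and the replicate block, and ranged from 0 to 867 when 1 library was left out. The 867 came without plpSC replicate 3, and 1 locus was called without pacSC replicate 3. With plpSC replicate 3 left out, the 867 called became 1339 with a pseudocount of 0.1, 1 with no filter on low values, 535 after quantile normalization and 0 with batch (the AY036118 division) as a term. Leaving out 1 further library gave 0 to 628. Without the 3 libraries of other types that stood apart (priSG-A replicate 3, rST replicate 1, elST replicate 1), an alternative chosen after seeing the data, 1848 were called, and all 867 were among them. The cause of these changes was not tested. Where no filter was used, more loci were both fitted and adjusted together, and the parts of these in the lower count were not separated. The replicate block gave 822, of which 783 were called the same way in the fit without it; of the named loci it ended the call of Gm43118 (limma adjusted p = 0.0549). Of the 867, the sign was kept at 853 after quantile normalization and at all 867 in the other fits that held them. The difference in detected loci kept its direction in every alternative run, and no p could pass the threshold at these numbers of libraries. No named locus reversed a call. Depth limits short and low loci, and an exact 0 may be a failed estimate.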
